A study of Mus musculus with 3 samples.

Results

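The keratin genes encode the intermediate filament proteins of epithelial cells. They were taken as the genes whose symbol in the array's annotation is Krt followed by digits and at most 1 letter, which leaves out the Krtap, Krtdap and Krtcap genes. This gave 52 of 19938 named genes, 28 of type I and 24 of type II, each measured by 1 probe set with that gene as its only symbol. Total RNA came from healing back skin of C57Bl/6 mice aged 6 weeks, collected on day 10, day 12 and day 14 after a large excision through the whole thickness of the skin. Both dermis and the epidermis over it were taken. All 3 groups share the strain, the age and the wound, and no unwounded skin is among them. The submitters state that skin and follicles at the wound's border were kept out of the dissection. Tissue of 3 mice was pooled for each day and put on 1 array, so no replicate error exists, no test was possible, and every difference compares single pools.

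Keratin filaments are built from pairs of 1 type I and 1 type II protein. Basal cells of the epidermis make K5 and K14, cells that leave the basal layer switch to K1 and K10, and keratinocytes at a wound add K6, K16 and K17. The hair follicle uses sets of its own in the companion layer, the inner root sheath and the shaft, and the shaft keratins are cross-linked by keratin-associated proteins. Simple epithelia rely on K8 and K18 with K7, K19 or K20. Mixtures of these genes in skin RNA therefore reflect layers and appendages, and in bulk tissue fewer cells of a type and less RNA per cell cannot be told apart.

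Values are log2 expression as deposited. Differences are the later day minus the earlier day in log2 units, in which 1 unit is 2-fold. Day 12 minus day 10 is called the early step, day 14 minus day 12 the late step, and day 14 minus day 10 the full span. As a gauge of technical disagreement, 777 genes measured by 2 probe sets were used. The differences of a pair's probe sets disagreed by up to 0.37 in the early step, 0.29 in the late step and 0.48 over the full span in 95% of these genes. Both probe sets of a gene are read on the same arrays, so this gauge holds no error shared by a whole array. It also holds no spread between animals. Probes of close paralogs, such as Krt6a and Krt6b or Krt33a and Krt33b, may bind each other's RNA, which was not tested.

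In the early step 5 keratin genes were higher by 2-fold or more, namely Krt15, Krt23, Krt77, Krt78 and Krt79. That is 9.62% of the 52, beside 0.787% of all 19938 genes, and 0 were lower by 2-fold, beside 0.13%. In the late step Krt71 and Krt25 were higher by 2-fold or more, which is 3.85% of the keratin genes, beside 0.0552% of all genes. Again 0 keratin genes were lower by 2-fold, beside 0.196% of all genes. Over the full span 10 were higher by 2-fold or more, 5 of each type, beside 1.25% of all genes, and 0 were lower, beside 0.512%. The 10 were the 7 genes above with Krt27, Krt33a and Krt73, and the highest difference was 2.42 for Krt77. The lowest was −0.24, for Krt222.

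Counted at 1.5-fold, 5 keratin genes were higher in the early step, 6 in the late step and 13 over the full span, beside 2.33%, 0.271% and 3.11% of all genes. At that size 0 were lower in any comparison, beside 0.958%, 0.712% and 2.98% of all genes. Only 20 of the 52 reached a level of 8.36 on at least 1 array, which is the median over all named genes of each gene's highest value. Krt7, Krt25 and Krt71 reached it on day 14 alone, so a count among the 20 would favour genes that were high on that day, and all 52 were kept. The median over all 52 was 0.03 in the early step, 0.06 in the late step and 0.20 over the full span, and the median of all named genes was 0.00 each time.

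**Figure D1:**
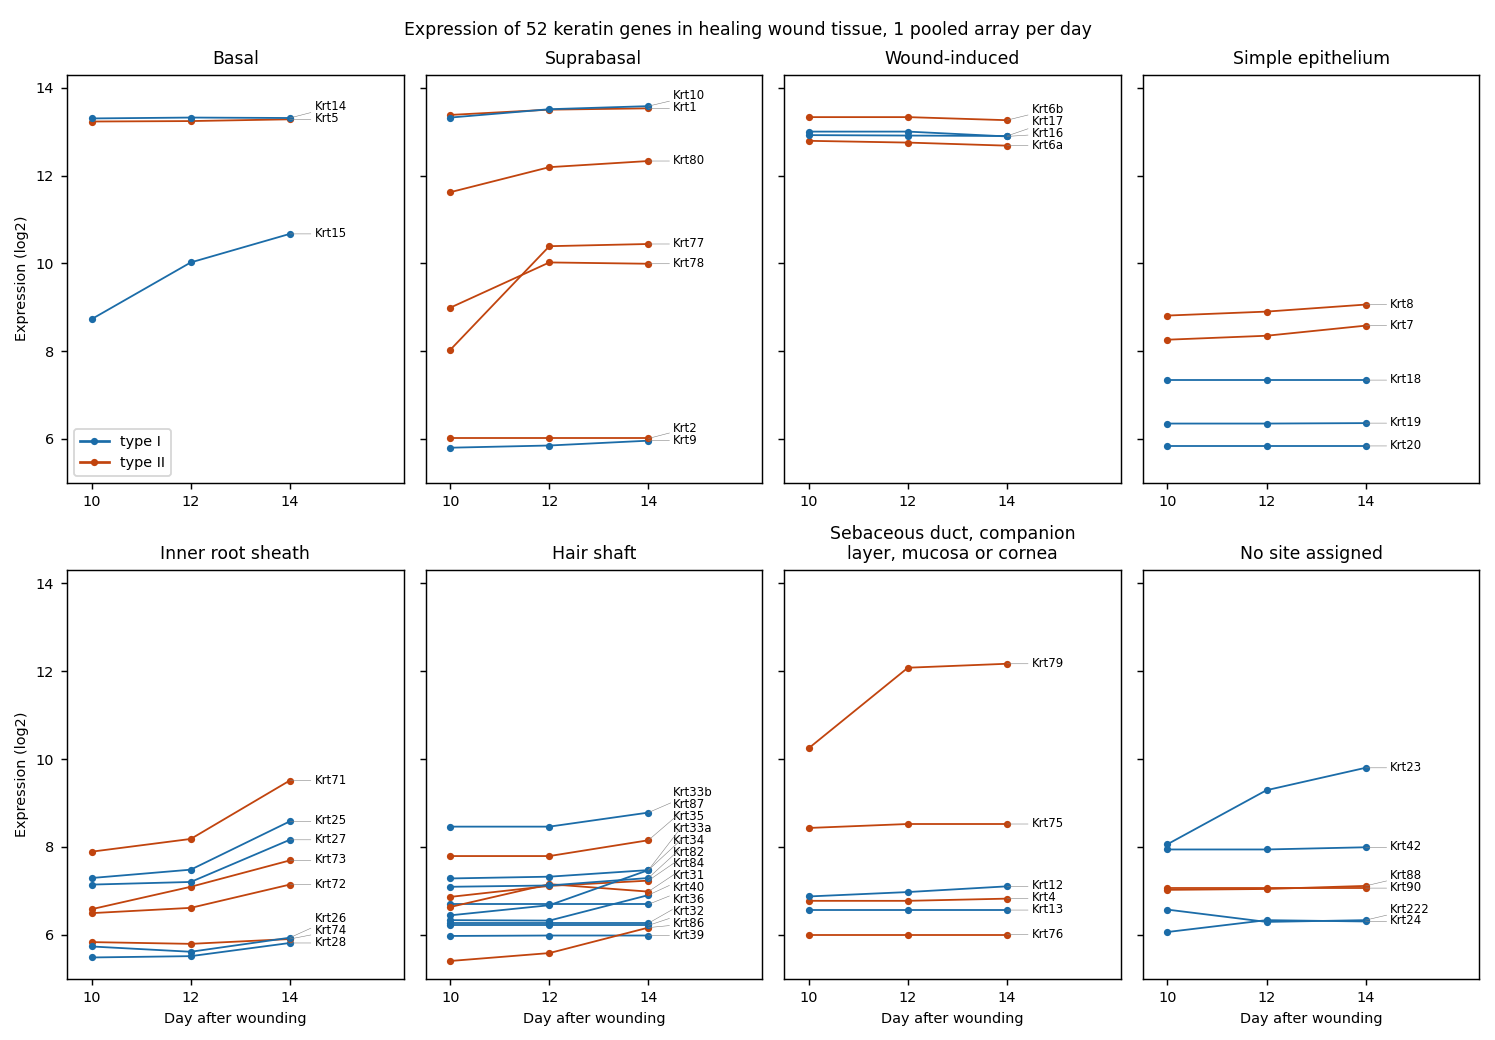
Expression (log2) of each of the 52 keratin genes on days 10, 12 and 14, with 1 point per gene and array, grouped by known site and coloured by type. Lines join a gene's values over days, and heights of different genes come from different probes and are not comparable. Krt15, Krt77, Krt78, Krt79 and Krt23 step up by day 12 and the inner root sheath genes by day 14, while Krt5, Krt14, Krt1, Krt10 and the wound-induced genes run nearly flat near the top of the range.

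Among the basal keratins, Krt5 and Krt14, the defining pair of the basal layer, gave differences of at most 0.05, and Krt15 was higher on each later day. Krt5 stood at 13.23, 13.24 and 13.28 on days 10, 12 and 14. Krt14 stood at 13.30, 13.32 and 13.31, so the signals on the 3 days nearly coincided. Both lay above the 99th percentile of named genes on every array, together with Krt1, Krt10, Krt6a, Krt6b, Krt16 and Krt17, so the epidermis named in the labels had its defining markers. The highest value on any array was 14.1, and whether probes so near the top of the range still respond in proportion to RNA was not tested for these 8 genes. Krt15, a type I keratin of basal cells and of the follicle bulge, stood at 8.73 on day 10, 10.02 on day 12 and 10.67 on day 14. Its day 14 value was 3.84-fold the day 10 value, and 66.1% of that log2 difference was present by day 12. The other 13 measured basal epidermis genes, most of them for attachment and adhesion, had a median of 0.02 in the early step, with 2 of them higher by 2-fold or more, beside 0.787% of all genes. Those were Igfbp2, an insulin-like growth factor binding protein gene, at 10.20 on day 12 against 9.15 on day 10, and Sostdc1, a Bmp and Wnt antagonist gene, at 10.27 against 9.17. Col17a1, the hemidesmosomal collagen XVII gene, was higher by 0.65 on day 14 than on day 10, and Cdh3, the P-cadherin gene, was lower, with a difference of −0.47.

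The suprabasal keratins divided in a similar way, with small differences in the main pair and larger ones in several other type II members. Krt1 stood at 13.38, 13.50 and 13.53 on days 10, 12 and 14, and its partner Krt10 at 13.32, 13.51 and 13.58. Their day 14 values exceeded day 10 by 0.15 and 0.26, which is within the disagreement between probe sets of 1 gene. Krt77, a type II keratin close to K1 that is known from differentiated epidermis and sweat ducts, stood at 8.03 on day 10, 10.39 on day 12 and 10.44 on day 14. It had the largest difference of any keratin gene, ranking 10 among all 19938 genes in the early step, and nearly all of it (98.1%) was there by day 12. Krt78 stood at 8.99, 10.02 and 9.99, a 2.04-fold higher level on day 12 than on day 10 and 2.01-fold on day 14. Krt80, a type II keratin of differentiating cells, stood at 11.62, 12.19 and 12.33, and was 1.63-fold higher on day 14 than on day 10. Krt9, the keratin of palms and soles, stood between 5.80 and 5.96, and Krt2 was listed at 6.01 on all 3 arrays.

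Genes of the suprabasal layers other than keratins were also higher. Of 24 listed, 20 were measured, and each of the 20 was higher in the early step, as were 25.5% of all genes. Their median was 0.54, and 3 were higher by 2-fold or more, beside 0.787% of all genes. In the late step the median was 0.08. Flg2, a filaggrin relative, stood at 8.70, 10.71 and 11.36 on days 10, 12 and 14. Hal, the histidase gene whose product feeds the skin's urocanic acid, stood at 10.72, 12.07 and 12.53. The late cornified envelope genes Lce1f and Lce1b were higher by 1.42 and 1.18 on day 14 than on day 10. The step of Krt77, Krt78 and Krt80 thus fell between the same days as that of these genes, and a shared source was not tested.

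The 4 wound-induced keratins, which keratinocytes switch on within hours of injury, had nearly the same signal on these days, at or above 99.4% of named genes, near the top of the range. Krt6a stood at 12.79, 12.75 and 12.68 on days 10, 12 and 14, and Krt6b at 13.33, 13.33 and 13.26. Krt16 stood at 13.00, 13.00 and 12.89, and Krt17 at 12.92, 12.91 and 12.90. Over the full span the differences lay between −0.11 and −0.02, all inside the disagreement between probe sets, and that of Krt17 turned positive under quantile normalization. The 17 measured genes of activated keratinocytes outside the keratins were less uniform, with a median of −0.26 over the full span. In that list Ptgs2, the cyclooxygenase 2 gene, stood at 10.32, 10.78 and 8.83 on days 10, 12 and 14. Epgn, an epidermal growth factor family ligand gene, stood at 10.79, 9.51 and 9.55. Serpinb3a, a serpin gene, stood at 8.44, 10.29 and 10.22, and Defb3, a defensin gene, at 8.04, 8.89 and 9.28.

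Simple epithelial keratins gave small differences. Krt8 stood at 8.81, 8.90 and 9.06 on days 10, 12 and 14, and Krt7 at 8.26, 8.35 and 8.58, so day 14 was higher than day 10 by 0.25 and 0.32. Krt18, the usual type I partner of K8, was listed at 7.34 on all 3 arrays, and Krt19 stood at 6.35, 6.35 and 6.36. Krt20, a keratin of Merkel cells and gut, was listed at 5.84 throughout. The 10 Merkel cell genes outside the keratins had medians of 0.00 in both steps. Their defining transcription factor genes Atoh1, Isl1 and Sox2 stayed between 6.00 and 6.43. Cck, a neuropeptide gene, stood at 9.50, 8.15 and 7.62 and Piezo2, a touch channel gene, at 9.66, 9.25 and 8.76. Chga, the chromogranin A gene, stood at 8.73, 9.62 and 9.56, and Rab3c at 6.09, 5.96 and 5.96.

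Krt79, a type II keratin of the sebaceous duct and the upper follicle, was higher on day 12 and stayed there. It stood at 10.25 on day 10, 12.08 on day 12 and 12.17 on day 14, and 95.1% of the final log2 difference was present by day 12. Sebaceous gland genes other than Krt79 had a median of 0.59 in the early step, with 5 of the 16 measured higher by 2-fold or more, beside 0.787% of all genes. Their median in the late step was −0.19. Fa2h, a fatty acid hydroxylase gene, stood at 7.48, 9.73 and 9.42 on days 10, 12 and 14. Far2, a fatty acyl-CoA reductase gene, stood at 8.02, 10.12 and 9.80, and Elovl3, a fatty acid elongase gene, at 6.36, 8.68 and 8.11. Scd1, the desaturase gene of sebocytes, stood at 10.45, 11.81 and 11.85. The late step of Krt79 was 0.09, beside −0.31, −0.33, −0.57 and 0.05 for these 4 genes. The summed linear signal of the 16, in which the brightest genes weigh most, was 9561, 14665 and 12961 on days 10, 12 and 14. Their part in the Krt79 difference was not tested.

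Krt23, a type I keratin with no settled site in skin, was higher on each later day, as Krt15 was. It stood at 8.06 on day 10, 9.29 on day 12 and 9.80 on day 14, which made day 14 3.33-fold higher than day 10. Krt75, the type II keratin of the companion layer, stood at 8.43, 8.52 and 8.52. The other genes with no assigned site, Krt24, Krt42, Krt88, Krt90 and Krt222, differed by no more than 0.28 in either step. Krt222 alone of them was lower on day 14 than on day 10, at 6.33 against 6.57. The mucosal and corneal keratins Krt4, Krt12, Krt13 and Krt76 lay between 6.00 and 7.10 on every array.

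The inner root sheath keratins had the largest median of the site groups in the late step. The inner root sheath is the rigid sleeve that guides the growing hair shaft, and its type II keratins K71 to K74 pair with the type I keratins K25 to K28. All 8 measured genes were higher in the late step, beside 32.7% of all genes. The 8 were also higher after centring, beside 14841 of 19938 genes, and after quantile normalization, beside 9775 of 19938. Their median was 0.57, against 0.03 for the 31 keratins outside sheath and shaft. Their median in the early step was 0.09. Krt71 stood at 7.89, 8.18 and 9.51 on days 10, 12 and 14, ranking 6 of 19938 genes by its late step. Krt25 stood at 7.29, 7.48 and 8.58 and ranked 10, and Krt27 stood at 7.14, 7.20 and 8.16 and ranked 12. Krt73 stood at 6.58, 7.09 and 7.69, and its steps of 0.50 and 0.60 were nearly equal, unlike those of the others. Krt72 stood at 6.49, 6.61 and 7.14 and Krt28 at 5.48, 5.51 and 5.81. Krt26 stood at 5.73, 5.61 and 5.93. Krt74, which is annotated as a pseudogene in the mouse, stood at 5.83, 5.79 and 5.90. Its late step of 0.11 lay within the disagreement of 0.29 between probe sets, and those of Krt28 and Krt26, 0.30 and 0.32, barely exceeded it. Only Krt71 and Krt25 reached the level of 8.36, and both did so on day 14 alone, so these are low signals and background could not be separated from expression.

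The start regions of 4 inner root sheath genes that were higher by 2-fold or more over the full span, and of 2 genes whose difference came with the early step, are shown because the first 4 were higher together in the late step. The sequences are RefSeq windows on GRCm38.p6, from 250 bases before to 50 bases after the annotated start, given 5′ to 3′ along the gene. All lie on the minus strand, at chr15:101743048-101743347 for Krt71, chr11:99322902-99323201 for Krt25, chr11:99351069-99351368 for Krt27, chr15:101802311-101802610 for Krt73, chr15:101869656-101869955 for Krt77 and chr15:101940275-101940574 for Krt79. Capitals mark the TATA box motif TATAAA and the GATA motif AGATAA, searched on both strands, and the motifs share no base in these windows.
Krt71: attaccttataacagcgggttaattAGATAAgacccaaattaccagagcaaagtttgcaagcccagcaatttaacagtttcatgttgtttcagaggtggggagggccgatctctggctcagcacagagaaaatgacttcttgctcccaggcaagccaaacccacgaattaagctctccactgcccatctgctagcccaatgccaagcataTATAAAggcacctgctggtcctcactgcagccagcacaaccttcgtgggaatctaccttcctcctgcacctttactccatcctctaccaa
Krt25: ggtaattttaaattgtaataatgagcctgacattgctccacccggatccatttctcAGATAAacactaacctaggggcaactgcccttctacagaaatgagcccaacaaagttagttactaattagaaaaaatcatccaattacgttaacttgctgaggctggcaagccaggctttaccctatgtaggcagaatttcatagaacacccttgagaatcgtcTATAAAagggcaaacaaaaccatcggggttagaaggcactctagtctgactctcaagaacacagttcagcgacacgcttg
Krt27: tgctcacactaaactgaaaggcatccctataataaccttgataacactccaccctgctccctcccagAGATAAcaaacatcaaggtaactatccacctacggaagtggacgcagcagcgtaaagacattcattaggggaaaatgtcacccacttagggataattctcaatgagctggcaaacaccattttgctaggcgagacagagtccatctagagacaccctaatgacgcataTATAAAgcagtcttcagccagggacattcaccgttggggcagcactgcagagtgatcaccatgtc
Krt73: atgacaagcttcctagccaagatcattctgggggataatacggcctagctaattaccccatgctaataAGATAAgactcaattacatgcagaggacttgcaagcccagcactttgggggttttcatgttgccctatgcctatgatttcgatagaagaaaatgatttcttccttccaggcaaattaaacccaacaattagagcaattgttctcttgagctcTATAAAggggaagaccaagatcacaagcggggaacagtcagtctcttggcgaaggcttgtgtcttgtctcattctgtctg
Krt77: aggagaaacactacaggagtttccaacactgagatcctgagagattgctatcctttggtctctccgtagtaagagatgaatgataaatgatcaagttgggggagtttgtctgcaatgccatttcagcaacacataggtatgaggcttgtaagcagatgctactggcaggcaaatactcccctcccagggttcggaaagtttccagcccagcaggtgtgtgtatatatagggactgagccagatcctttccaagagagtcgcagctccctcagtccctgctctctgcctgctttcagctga
Krt79: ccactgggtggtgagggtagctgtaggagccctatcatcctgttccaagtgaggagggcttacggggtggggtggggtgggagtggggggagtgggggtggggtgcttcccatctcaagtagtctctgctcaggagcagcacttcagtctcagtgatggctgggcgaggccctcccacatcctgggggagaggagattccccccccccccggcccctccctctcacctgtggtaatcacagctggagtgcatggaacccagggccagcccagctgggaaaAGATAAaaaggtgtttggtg
In the first 4 windows TATAAA began 40, 30, 15 and 30 bases before the annotated start of Krt71, Krt25, Krt27 and Krt73. AGATAA began 225, 194, 183 and 182 bases before it. Krt77 held neither motif, and Krt79 held AGATAA after its start. Windows were on hand for 36 of the 52 keratin genes. Keratin shares count 1 window per gene, while shares of all windows count every window, without reduction to 1 per gene. TATAAA was in each of the 7 inner root sheath windows and in 6 of the 9 hair shaft windows. It was in 52.8% of the 36 keratin windows and in 13.6% of all 32851 windows. AGATAA was in 4 of the 7 inner root sheath windows and in 0 of the 9 hair shaft windows. It was in 27.8% of the keratin windows and in 11.2% of all windows. Krt8, Krt10, Krt20 and Krt76, of other sites, also held both motifs, and their late steps were 0.15, 0.07, 0.00 and 0.00. Of 4 further motifs searched on both strands, the AP-1 motif TGANTCA was in 1 keratin window and 7.81% of all. The AP-2 motif GCCNNNGGC was in 19.4% of keratin windows and 16.6% of all. The Lef1 motif CTTTGA was in 9 of the 36 and in 16.0% of all windows, and in 5 of the 9 hair shaft windows. The Klf and Sp motif CCACACCC was in 11.1% and 3.56%. These are letter matches, not binding sites. Gata3, a transcription factor gene needed for the inner root sheath, stood at 9.30, 10.62 and 10.90 on days 10, 12 and 14. Of its difference of 1.60, 1.32 was present by day 12, beside 0.29 of 1.62 for Krt71. Any link between Gata3, the AGATAA matches and the keratin differences was not tested.

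Of the 13 hair shaft keratins measured, 1 reached the level of 8.36, and the median of the group was 0.01 in the early step and 0.15 in the late step. Krt33a, a type I shaft keratin, stood at 6.44, 6.67 and 7.47 on days 10, 12 and 14. Its close paralog Krt33b stood at 8.46, 8.46 and 8.78, and Krt31 at 6.33, 6.32 and 6.90. Krt86, a type II keratin of the cortex, stood at 5.40, 5.58 and 6.16, and Krt87 at 7.79, 7.79 and 8.15. Krt34 and Krt35 were higher by 0.20 and 0.19 on day 14 than on day 10, and Krt82, a cuticle keratin, by 0.38. Krt84 differed from the rest, at 6.63 on day 10, 7.15 on day 12 and 6.98 on day 14. Krt32, Krt36 and Krt40 were listed at 1 value on all arrays, and Krt39 stayed at 5.97 to 5.98. Krt81, Krt83 and Krt85 were not analysed here.

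The keratin-associated proteins, which fill the hair shaft between keratin filaments, were looked up after the keratin values were seen. Of 44 measured, 40 were higher in the late step, beside 32.7% of all genes, and 4 were exactly equal, with a median of 0.45. After quantile normalization 39 were higher and 5 lower, beside 9775 and 10114 of all 19938 genes. Krtap15 stood at 5.39, 5.58 and 7.34 on days 10, 12 and 14. Krtap7-1 stood at 6.18, 6.64 and 8.13, Krtap8-1 at 6.33, 6.56 and 7.85, and Krtap19-5 at 5.07, 5.05 and 6.38. Of the 11 genes on the whole array that were higher by 2-fold or more in the late step, 2 were keratins and 7 were keratin-associated proteins. The remaining 2 were Mt4 and Gm11559, a gene that lies among Krtap genes in the annotation. Only 5 of the 44 reached 8.36 on any array. Many are members of 1 subfamily, such as Krtap19-1 to Krtap19-5, and whether their probes bind each other's RNA was not tested. The 44 may therefore not be separate observations.

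**Figure D2:**
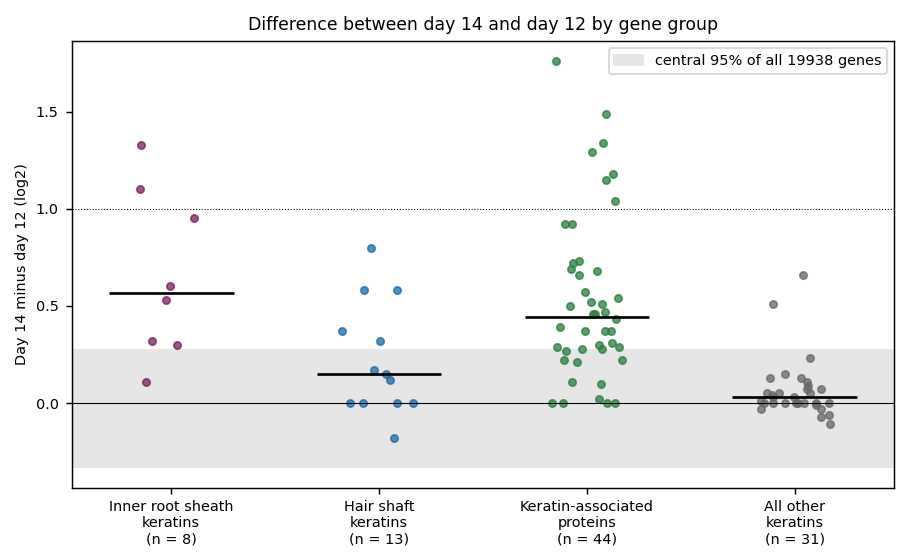
Day 14 minus day 12 (log2) for each gene of 4 groups. Points are genes, horizontal bars are group medians, the dotted line marks 2-fold, and the grey band spans −0.33 to 0.27, the central 95% of all 19938 genes. The medians are 0.57 for 8 inner root sheath keratins, 0.15 for 13 hair shaft keratins, 0.45 for 44 keratin-associated proteins and 0.03 for the other 31 keratins.

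Follicle genes outside these families had smaller differences at the median. The list of other hair shaft and sheath genes, 22 measured of 22, had a median of 0.01 in the late step, with 1 gene higher by 2-fold or more, beside 0.0552% of all genes. That gene, Mt4, a metallothionein gene of stratified epithelium, stood at 9.44, 10.53 and 11.97 on days 10, 12 and 14. Tchh, the trichohyalin gene of the inner root sheath, stood at 7.61, 8.04 and 8.52. Dsc2, a desmosomal cadherin gene, stood at 10.82, 9.86 and 9.16. The summed linear signal of the list was 17827, 20280 and 23120 on days 10, 12 and 14. That sum includes Mt4, adds signals of different probes and gives most weight to bright genes, so it does not describe the typical gene of the list. Hoxc13 and Msx2, regulators of shaft keratin genes named after their values were seen, stood at 6.72, 6.82 and 6.82 and at 6.97 on all arrays. They do not stand for the whole list. In the late step 11 of the 22 were higher, 4 lower and 7 equal, beside 32.7% higher and 30.8% lower of all genes. The part of these genes' source in the keratin differences was not tested.

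The 13 keratin genes at least 1.5-fold apart on any pair of days can be ordered by the share of the day 14 minus day 10 difference present on day 12. Both differences use the day 10 array, so the share is a description. It was 102.7% for Krt78, 98.1% for Krt77, 95.1% for Krt79 and 81.2% for Krt80. Krt23 and Krt15 followed with 70.5% and 66.1%. Krt73 was at 45.5%, and the remaining shaft and inner root sheath genes lay between 23.3% for Krt86 and 6.0% for Krt27.

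**Figure D3:**
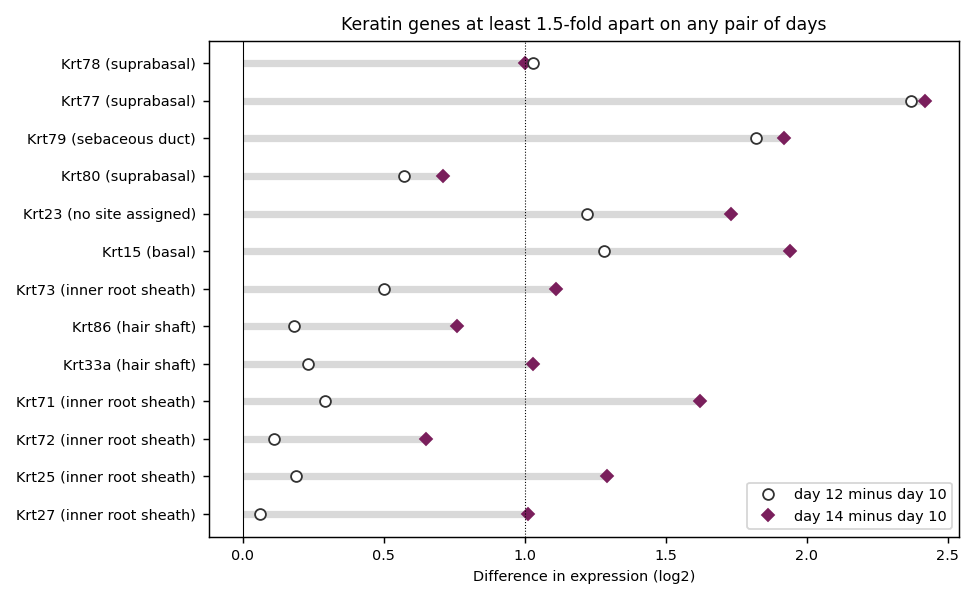
Difference from day 10 (log2) on day 12 (open circles) and on day 14 (filled diamonds) for the 13 keratin genes at least 1.5-fold apart on any pair of days, ordered by the share reached on day 12. The dotted line marks 2-fold. Circles sit close to the diamonds for Krt78, Krt77 and Krt79 and near 0 for Krt27.

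All type I genes but Krt18 lie on chromosome 11 and all type II genes on chromosome 15, where Krt18 follows Krt8. Some runs of neighbours shared a site and were higher in the late step. Krt25, Krt26, Krt27 and Krt28 are consecutive on chromosome 11 and were higher by 1.10, 0.32, 0.95 and 0.30 in the late step. Krt71, Krt74, Krt72 and Krt73 are consecutive on chromosome 15 and were higher by 1.33, 0.11, 0.53 and 0.60. Yet Krt5, directly before Krt71, differed by 0.03 and Krt10, directly after Krt28, by 0.07. Krt77, Krt79 and Krt78 lie within a stretch of 5 measured genes that also holds Krt76 and Krt4, which differed by 0.00 each in the early step. Krt15 lies between Krt13 and Krt19, which both differed by 0.00 in that step.

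**Figure D4:**
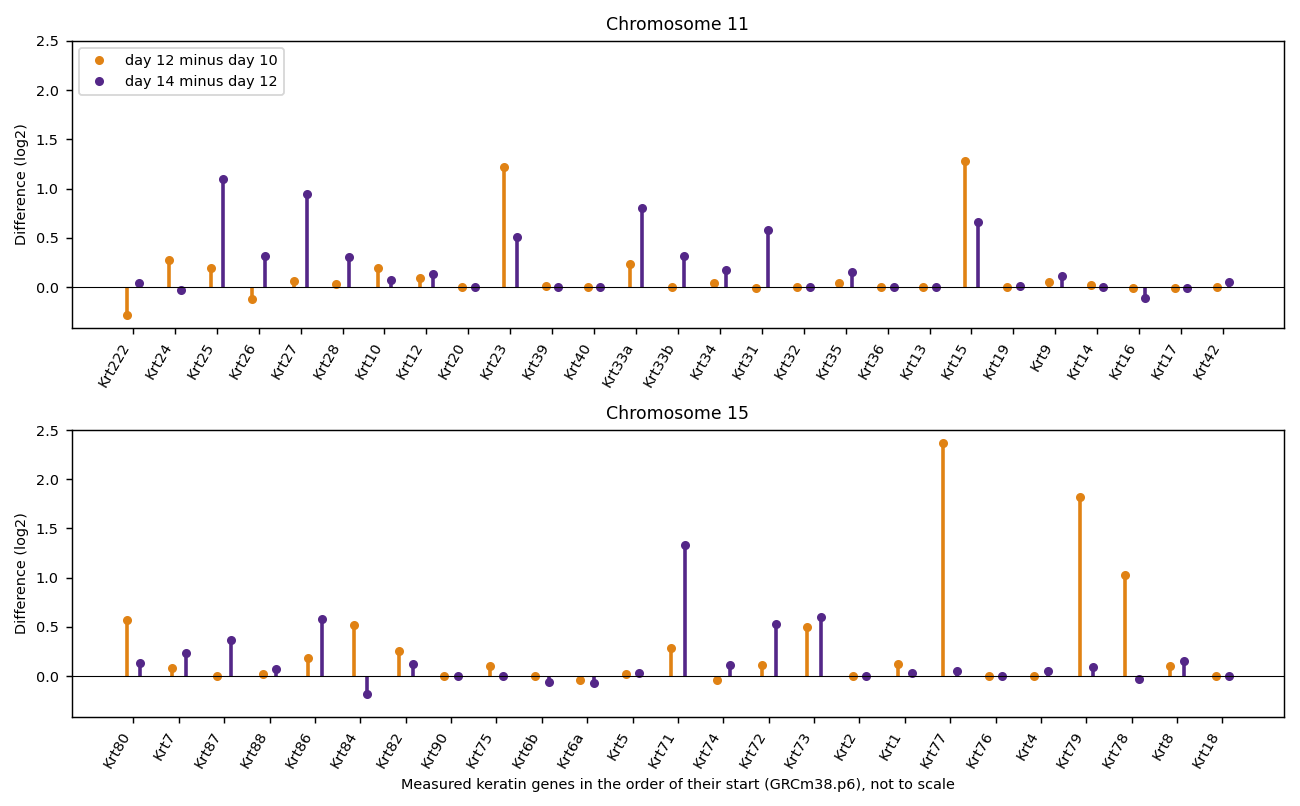
Day 12 minus day 10 (orange) and day 14 minus day 12 (purple) in log2 units for each keratin gene, in chromosomal order and not to scale, with chromosome 11 above and chromosome 15 below. Stems run from 0 to each point. Purple points stand above 0 along the runs Krt25 to Krt28 and Krt71 to Krt73, and the highest orange points are those of Krt77 and Krt79.

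Genes that hold keratin filaments to junctions had medians of 0.13 in the early step and 0.00 in the late step, over 22 measured of 24 listed. Over the full span 0 were higher by 2-fold and 2 were lower by 2-fold or more, beside 0.512% of all genes, namely Dsc2 with −1.66 and Pkp2, a plakophilin gene, with −1.11. Ppl, the periplakin gene, was higher by 0.88. Known regulators of keratin genes had medians of 0.29 and 0.00 in these steps over 25 measured of 28. Grhl1, Grhl3 and Tfap2a, transcription factor genes of the epidermis, were higher by 0.84, 0.71 and 0.61 on day 14 than on day 10. Intermediate filament genes other than keratins had a median of 0.00 in both steps, and 1 of 16, Des, was lower by 2-fold or more over the full span, beside 0.512% of all genes. Des, the muscle desmin gene, stood at 9.82, 9.11 and 8.77. Over that span Nes and Sync had differences of −0.52 and −0.28, and Prph of 0.13. Vim, the mesenchymal vimentin gene, stood at 13.51, 13.51 and 13.49.

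**Figure D5:**
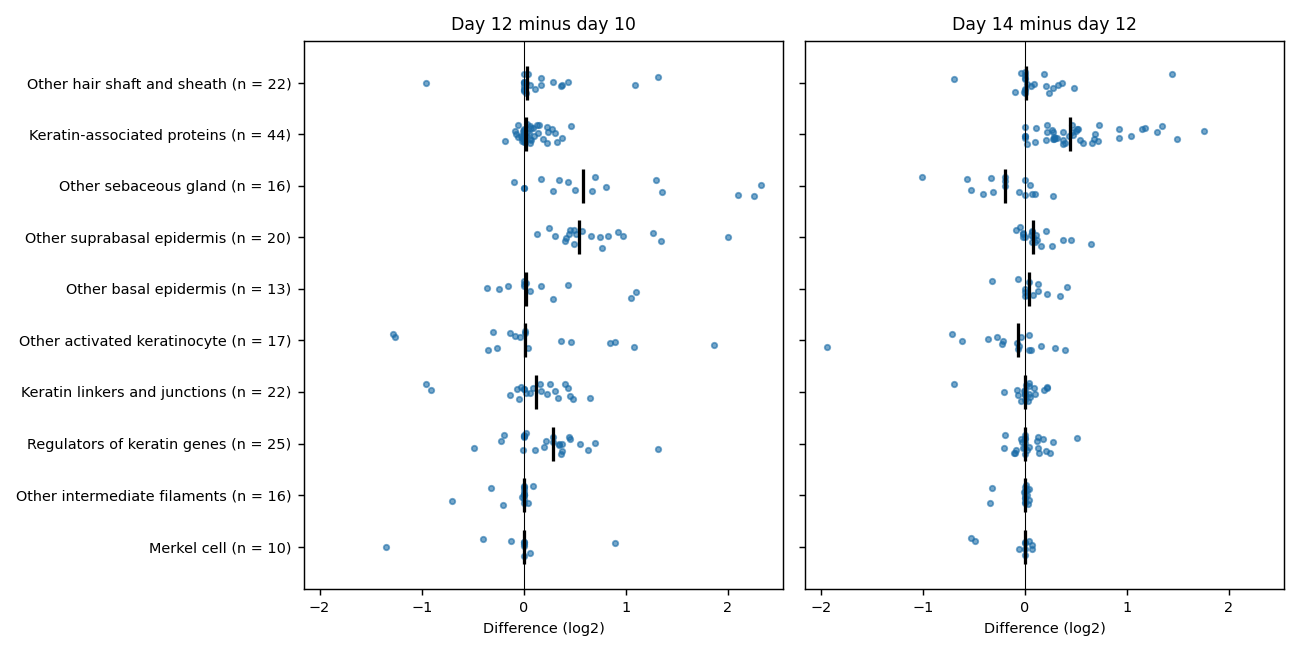
Difference in log2 units for each measured gene of 10 lists, day 12 minus day 10 on the left and day 14 minus day 12 on the right. Points are genes and black bars are list medians. The suprabasal and sebaceous medians stand at 0.54 and 0.59 on the left, and the median of the keratin-associated proteins at 0.45 on the right.

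Equal values need care in these data. Of the 52 keratin genes, 9 held exactly 1 value on all arrays, beside 25.7% of all named genes and 38.0% of the genes whose highest value was below 8.36. They were Krt2, Krt13, Krt18, Krt20, Krt32, Krt36, Krt40, Krt76 and Krt90, and each was below 8.36. In all, 32 of the 52 stayed below it. Counting any size of difference, 30 keratin genes were higher and 7 lower in the early step, beside 25.5% and 34.5% of all genes. After centring the counts were 29 and 23, beside 4567 and 15371 of all 19938 genes. After quantile normalization they were 30 and 20, beside 8009 and 11339. In the late step the deposited values gave 33 and 8, beside 32.7% and 30.8% of all genes. Centring gave 46 and 6, beside 14841 and 5097 of all genes, and quantile normalization 34 and 17, beside 9775 and 10114. Over the full span the deposited values gave 38 and 5, beside 34.9% and 35.6% of all genes. Centring gave 47 and 5, beside 13217 and 6721 of all genes, and quantile normalization 36 and 16, beside 9107 and 10755.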

How the data were processed

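Total RNA of 3 pools, 1 per day and each of tissue from 3 mice, was measured on 3 one-colour arrays. The deposited table holds 1 log2 value per probe set and array. The submitters' processing notes list RMA and Partek 6.6, without saying what each did. The log2 scale of the deposited values was taken from their range of 4.37 to 14.1. No build is given in the sources used here, and no scanner output was used, so signal over background is unknown.

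Values were used without further scaling. Of 35556 probe sets, 21789 had 1 symbol in the platform annotation and were averaged to 19938 genes with Python 3.11.15 and pandas 2.3.3. All 52 keratin symbols matched GRCm38.p6 by Entrez identifier. Members, site groups and lists were chosen with earlier results of these data known. Values are given for keratin genes at least 1.5-fold apart on any pair of days and for a fixed set of site markers, and for the 4 members of each list with the largest difference between day 14 and day 10. Atoh1, Isl1, Sox2, Hoxc13, Msx2, Vim, the keratin-associated proteins and the remaining keratin genes given by value were named after their values were seen. Genes were counted at 2-fold with no level filter. A level of 8.36, the median over genes of the highest value, served as a filter in an alternative. Motifs were searched in RefSeq windows. Counting and motif search were tested on simulated data.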

Additional observations from a re-analysis of the deposited data

How the results depend on the processing

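Settings tried were 1.5-fold in place of 2-fold, a level filter, arrays centred on their medians, quantile normalization and the brightest probe set per gene. The count of keratin genes higher in the late step (day 14 minus day 12) was 6 at 1.5-fold, against 2 at 2-fold. Over the full span (day 14 minus day 10) it was 10, and 9 under quantile normalization and 13 at 1.5-fold. In the early step (day 12 minus day 10) it was 5 under each setting that keeps all keratin genes, and 0 were lower under these. Each keratin gene has 1 probe set, so the brightest probe set changed no keratin value. The level filter kept 20 keratin genes, 3 of them through day 14 alone, among them both inner root sheath genes it kept, so its larger values for that group follow from the filter and are not given. Scaling moved no keratin difference by more than 0.07, and it turned the sign of, or gave 2 signs to, 3, 15 and 13 keratin genes in the early step, the late step and the full span. Of these, 1, 10 and 9 were exactly equal as deposited, and none differed by more than 0.05. With 1 pool per day, no replicate could be left out. No paired analysis was possible because each day has 1 array. Of the keratin genes, 32 stayed below 8.36 on every array, where background may hold much of the signal.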
